A study of Homo sapiens with 6 samples.

Results

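The nuclear factors of activated T cells (NFAT) and the myocyte enhancer factors 2 (MEF2), 2 families of calcium-responsive transcription factors, were examined in RNA-seq libraries of the human adrenocortical carcinoma (ACC) cell line H295R. The genes were taken by name: NFATC1, NFATC2, NFATC3, NFATC4, NFAT5, RCAN1, MEF2A, MEF2B, MEF2C and MEF2D. All 10 names were found among the 57341 named genes of the count table, and 9 of them passed the filter on low counts that left 16710 genes for testing. MEF2B was the gene that did not pass.

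In the resting cell the NFATc proteins sit phosphorylated in the cytoplasm. A rise in calcium activates the phosphatase calcineurin through calmodulin, calcineurin removes the phosphates and the NFATc proteins enter the nucleus, while kinases such as GSK3 and DYRK send them back. RCAN1 binds and restrains calcineurin and is itself transcribed from an NFAT-responsive internal start. NFAT5 is the relative that lacks the calcineurin docking region and drives the response to hypertonic stress. MEF2 proteins are held silent by class IIa histone deacetylases until calcium-activated kinases export those deacetylases from the nucleus. In the adrenal cortex, calcium signals of this kind follow angiotensin II and potassium and precede the transcription of steroidogenic genes.

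H295R-PM-Ptc+ cells were sorted by antibody from H295R for the Hedgehog receptor Ptch1 at the plasma membrane, and both populations were grown in the same medium with no treatment. Each had 3 libraries, numbered 1 to 3, and same-numbered libraries of both groups carried the same code in the labels (1801, 3001 and 3101). The labels do not say what this code stands for. Both groups therefore come from 1 cell line, and nothing in the labels says whether the numbers stand for separate sorts or cultures, so that the p-values measure the spread between these libraries, which may be technical. Library totals ranged from 23264403 to 25813247 counts.

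The sorted gene went against the labels. PTCH1 had 18.5, 22.0 and 23.4 CPM (counts scaled to library size) in the libraries labelled H295R and 9.70, 13.1 and 13.8 CPM in those labelled H295R-PM-Ptc+, a log2 difference of -0.81 (SE 0.147; edgeR quasi-likelihood test, adjusted p = 0.0207). Without H295R replicate 2 or 3, or without replicate 2 labelled H295R-PM-Ptc+, the adjusted p was 0.0799, 0.0921 or 0.0618. The study's own normalized values hold each of these libraries under the other group's name. Groups are given here as the count table labels them, and each direction below turns round if those labels are exchanged. Libraries of replicate 1 also stood apart from replicates 2 and 3 in both groups, with a chi-square per gene of 19.5 to 28.3 against 5.97 and 10.3 between replicates 2 and 3.

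All 7 adrenal cortex markers were tested, and their summed level was 876 to 1155 CPM in the libraries labelled H295R and 955 to 1213 CPM in the others. Of these, the steroid 21-hydroxylase gene CYP21A2 was called higher by label (log2 fold change 0.88, edgeR adjusted p = 0.00670). The fit with the group alone called 3.73% of all tested genes. With the replicate number held as a block in edgeR, 22.5% of all tested genes were called. Of the 7, CYP21A2 (adjusted p = 1.22e-06) and STAR (adjusted p = 3.91e-06) were then called higher and CYP11A1 (adjusted p = 0.00100) lower. STAR was also among the genes that the study picked from these libraries. All 4 endothelial markers fell short of the filter. Of the lymphocyte markers, PTPRC was at 0 in every library, while CD79A had 11, 11 and 12 counts in the libraries labelled H295R and 169, 52 and 33 counts in those labelled H295R-PM-Ptc+ (edgeR adjusted p = 0.0409). NFATC1 and NFATC2 are widely used by lymphocytes and MEF2 factors by muscle, and the part of other cells in the levels below was not tested. Of the muscle and fibroblast lists 1 gene each was tested, and the myogenic factors MYOD1 and MYOG were at 0. The muscle gene was the embryonic myosin MYH3, at 16.8, 11.5 and 11.4 CPM against 8.37, 7.60 and 7.04 (log2 fold change -0.78; edgeR adjusted p = 0.0408). In a bulk library, fewer cells of a type and less RNA per cell cannot be told apart.

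Upstream sequences were read from RefSeq (GRCh38.p14) for 8 of the 10 genes. NFAT5 had no entry, and the window of NFATC3 lay wholly within exons. The 3 windows below were chosen because they hold core letters of an NFAT site before NFATC1 and NFATC2, whose groups did not overlap, and before RCAN1, the inhibitor known as an NFAT target. The windows begin up to 250 bases before an annotated start and end where an exon of any isoform begins. Capitals mark GGAAA, those core letters, and its reverse complement. The first window lies before an internal start of RCAN1 (chr21:34526964-34527072, minus strand) and holds 3 such cores.
RCAN1 internal start: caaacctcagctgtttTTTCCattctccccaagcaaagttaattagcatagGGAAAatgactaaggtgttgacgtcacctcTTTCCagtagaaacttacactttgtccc
A second start of NFATC1 lies behind chr18:79400049-79400273 on the plus strand, with 1 core in the window.
NFATC1 second start: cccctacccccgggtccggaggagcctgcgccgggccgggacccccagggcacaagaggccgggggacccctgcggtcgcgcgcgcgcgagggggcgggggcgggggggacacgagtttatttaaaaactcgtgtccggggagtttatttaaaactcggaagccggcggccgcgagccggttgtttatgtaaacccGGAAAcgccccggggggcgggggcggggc
The outermost start of NFATC2 lies behind chr20:51562840-51563089 on the minus strand, and this window holds 3 cores.
NFATC2 first start: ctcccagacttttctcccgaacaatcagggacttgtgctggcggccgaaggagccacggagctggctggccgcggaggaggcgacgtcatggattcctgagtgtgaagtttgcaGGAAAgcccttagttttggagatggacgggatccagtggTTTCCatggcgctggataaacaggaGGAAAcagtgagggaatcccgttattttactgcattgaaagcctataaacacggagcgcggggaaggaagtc
GGAAA in either direction occurs at least once in 55.6% of all 35116 windows of 250 bases before RefSeq starts, and at least 3 times in 7.12% of them. Those windows were not cut at exons, and the printed RCAN1 window would hold 4 cores if uncut. The other 5 windows of RCAN1, the other windows of NFATC1 and NFATC2 and that of MEF2D held none outside exons. Cores also lay before NFATC4 and MEF2C, whose groups overlapped. A window of NFATC4 held 1 core, and some windows of MEF2C held 1 or 2. These matches describe letters, not bound sites.

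All the factors except MEF2B were expressed above the filter, and the MEF2 family held both ends of the range. Levels between genes were compared as CPM per kilobase of listed exon (CPM/kb), averaged over the 6 libraries. MEF2A stood first with 12.4 CPM/kb, followed by NFATC4 with 10.3 and MEF2D with 9.58. RCAN1 had 4.77 CPM/kb, MEF2C 4.43 and NFATC3 4.19. Below these came NFAT5 with 2.60 CPM/kb, NFATC2 with 1.52, NFATC1 with 1.44 and MEF2B with 0.106. The 6 libraries' ranges of neighbours in this order overlapped, except between MEF2D and RCAN1, between NFATC3 and NFAT5, and between NFATC1 and MEF2B. NFATC4 was thus the most abundant NFAT transcript of these cells, and NFATC1 and NFATC2, the members best known from T cells, had the lowest NFAT means, in ranges that overlapped that of NFAT5.

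**Figure D1:**
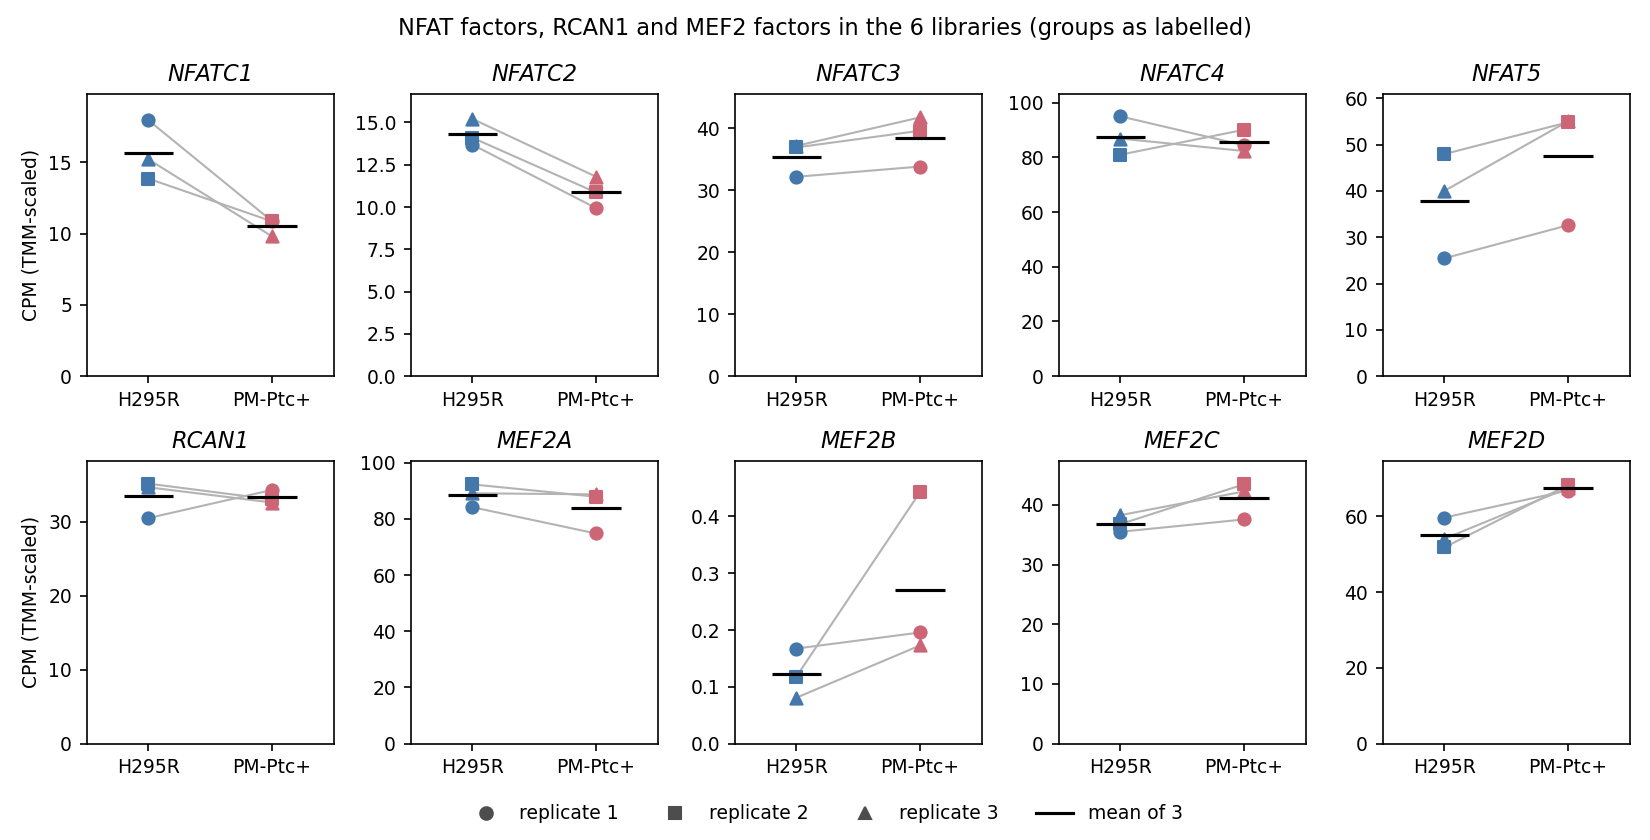
Level of each of the 10 genes in CPM (y axis, from 0, own scale per gene) in the 3 libraries labelled H295R (blue) and the 3 labelled H295R-PM-Ptc+ (red), with a symbol per replicate number, a grey line joining same-numbered libraries and a black bar at the mean of 3. NFATC1 and NFATC2 lie lower and MEF2D higher in every library labelled H295R-PM-Ptc+, and both replicate 1 libraries are lowest for NFAT5.

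NFATC1, which is known for its role in lymphocytes, osteoclasts and heart valves, was the only one of the 9 tested genes to pass the test between the groups. Its counts were 429, 352 and 376 in replicates 1 to 3 of the libraries labelled H295R and 278, 270 and 227 in those labelled H295R-PM-Ptc+. On the CPM scale these were 18.0, 13.9 and 15.2 against 10.9, 10.9 and 9.81. The groups did not overlap, and every same-numbered pair had the lower level in the library labelled H295R-PM-Ptc+, with log2 ratios of -0.72, -0.35 and -0.63. The mean fell from 15.7 ± 2.09 to 10.5 ± 0.613 CPM (SD, n = 3 libraries each), a log2 fold change of -0.57 (SE 0.120, 95% interval -0.85 to -0.30). The adjusted p was 0.0356 in edgeR's quasi-likelihood test with Benjamini-Hochberg adjustment over all 16710 genes.

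This 1 call among 9 tested genes stands beside 3.73% of all tested genes called, and 1.32% called lower. The call on NFATC1 was lost when any of 4 single libraries was left out. Its adjusted p was 0.106 without H295R replicate 3, and 0.0703, 0.112 and 0.148 without replicates 1, 2 and 3 labelled H295R-PM-Ptc+. NFATC1 was also among the genes that the study itself picked from these libraries, so its call is not independent evidence. The gene lies at chr18:79395856-79529325 (hg38) and shares no exon base with another listed gene on either strand.

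NFATC2, the main NFAT factor of resting T cells, showed the same direction. It had 13.7, 14.1 and 15.2 CPM in the libraries labelled H295R and 9.94, 10.9 and 11.8 CPM in those labelled H295R-PM-Ptc+. Again the groups did not overlap, and the pair ratios on the log2 scale were close to each other at -0.46, -0.38 and -0.37. The log2 fold change was -0.40 (SE 0.105, 95% interval -0.64 to -0.16) with an adjusted p of 0.0769 in edgeR, above the threshold of 0.05. With the replicate number held as a block, since same-numbered libraries deviated together, the change was -0.40 with an adjusted p of 0.00242. The gene occupies chr20:51386957-51562831.

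NFATC3 and NFATC4, the factors known from developing T cells, vessels and nerve cells, gave no call. NFATC3 had 32.2, 36.9 and 37.2 CPM against 33.8, 39.6 and 41.8, so that the groups overlapped. Its log2 fold change was 0.12 (95% interval -0.11 to 0.34; edgeR adjusted p = 0.635). NFATC4 had 95.0, 80.9 and 86.9 CPM against 84.4, 90.1 and 82.3, with a log2 fold change of -0.03 (95% interval -0.22 to 0.16; edgeR adjusted p = 0.898). A change of NFATC4 as large as that of NFATC1 lies outside this interval. Of the listed exon bases of NFATC3, 19.0% are shared with other annotated genes on its strand, which had at most 7 counts in a library.

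NFAT5, the tonicity-responsive factor, varied more between replicate numbers than between groups. It had 25.4, 48.0 and 40.0 CPM in the libraries labelled H295R and 32.6, 54.8 and 55.0 CPM in those labelled H295R-PM-Ptc+. Replicate 1 was the lowest library of each group, and within each pair the library labelled H295R-PM-Ptc+ was the higher, with log2 ratios of 0.36, 0.19 and 0.46. In the fit with the group alone the log2 fold change was 0.33 (SE 0.248, 95% interval -0.24 to 0.89; edgeR adjusted p = 0.567). With the replicate block the same change of 0.33 had an SE of 0.0613 and an adjusted p of 9.66e-04. Without both replicate 1 libraries, a setting chosen after seeing the data, it was 0.32 with an adjusted p of 0.0309. Leaving out 1 library moved it to between 0.11 (without H295R replicate 1) and 0.53 (without H295R replicate 2), with adjusted p of 0.247 to 0.866 over the 6 libraries.

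RCAN1, the calcineurin inhibitor whose short isoform is a standard readout of NFAT activity, did not separate the groups. Its levels were 30.5, 35.1 and 34.6 CPM against 34.3, 33.0 and 32.6 CPM. The log2 fold change was -0.01 with a 95% interval of -0.19 to 0.18 (edgeR adjusted p = 0.984). Counts per gene name pool all isoforms, so the isoforms that start behind the printed window were not measured apart from the others.

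MEF2D, the family member found in most tissues, lay higher in each library with the H295R-PM-Ptc+ label. Its levels were 59.6, 51.8 and 54.0 CPM in the libraries labelled H295R and 66.8, 68.2 and 67.4 CPM in the others. The groups did not overlap, and the 3 libraries labelled H295R-PM-Ptc+ lay close together, with a mean of 67.5 ± 0.719 against 55.2 ± 4.05 CPM (SD, n = 3). The log2 fold change was 0.29 (SE 0.0766, 95% interval 0.12 to 0.46) and the adjusted p 0.0784 in edgeR. With the replicate block the adjusted p was 0.00111, and without H295R replicate 1 it was 0.0281, while leaving out any other single library gave 0.141 to 0.279. The study picked MEF2D from these libraries as well. Its neighbours on chromosome 1 leaned the same way: of the 100 nearest tested genes around chr1:156463727-156500828, 76 lay higher in H295R-PM-Ptc+ by label, and their median was 0.14 on the log2 scale (all 100 genes). The part of this stretch in the MEF2D difference was not tested.

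The other MEF2 genes gave no call. MEF2A, the most abundant, had 84.2, 92.3 and 89.2 CPM against 74.8, 87.9 and 88.8, a log2 fold change of -0.08 (95% interval -0.28 to 0.12; edgeR adjusted p = 0.730). MEF2C, the member most tied to muscle, neural crest and B cells, had 35.5, 36.8 and 38.3 CPM against 37.6, 43.4 and 42.2. Every pair of MEF2C had the higher level in the library labelled H295R-PM-Ptc+ but the groups overlapped, and the log2 fold change was 0.16 (95% interval -0.03 to 0.34; edgeR adjusted p = 0.380, and 0.0636 with the replicate block). MEF2B had 4, 3 and 2 counts against 5, 11 and 4 counts and was below the filter on low counts. With no filter it was tested and not called. Of its exon bases 73.9% are shared with the read-through gene MEF2BNB-MEF2B, which had 5, 2 and 3 counts against 11, 1 and 6, so even these few counts are uncertain in their origin.

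**Figure D2:**
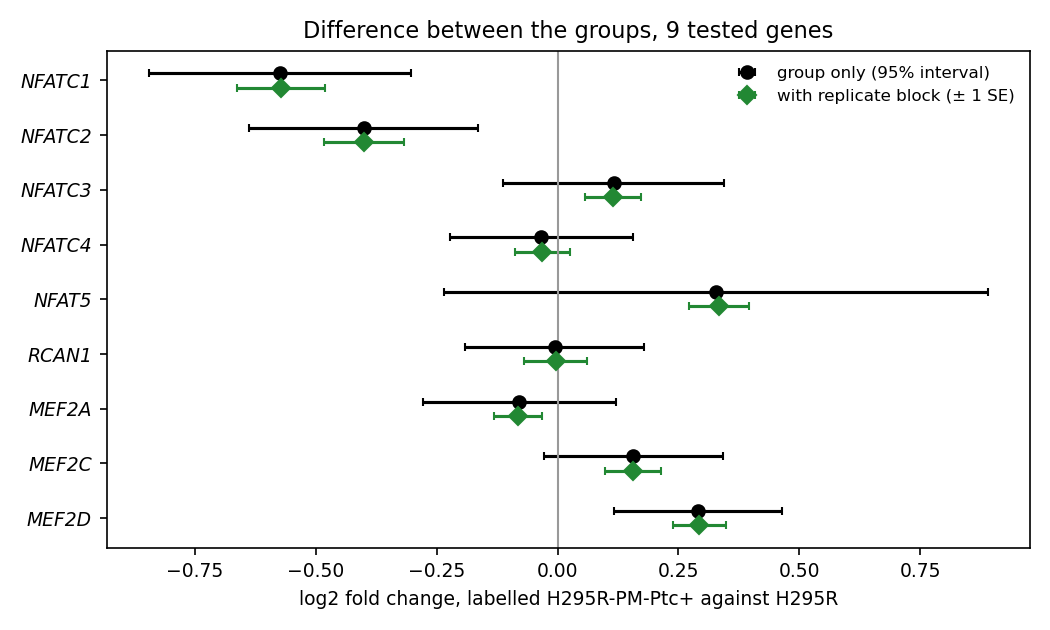
Log2 fold change between the groups as labelled, H295R-PM-Ptc+ over H295R (x axis), for the 9 tested genes, from the fit with the group alone (black, with 95% interval) and from the fit with the replicate block (green, ± 1 SE). The estimates hardly differ between the fits, and the spread of NFAT5 shrinks most, from an SE of 0.248 to 0.0613.

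Over the 9 tested genes, 3 had groups that did not overlap (NFATC1, NFATC2 and MEF2D), where 23.5% of all tested genes did so. At an unadjusted p under 0.05 the same 3 genes were counted, where 17.3% of all tested genes were. With the replicate block 4 of 9 were called, NFATC1 and NFATC2 lower and MEF2D and NFAT5 higher, where 22.5% of all tested genes were called, 10.4% lower and 12.1% higher. The same 4 were called without both replicate 1 libraries, where 12% of the genes tested there were called. The median log2 fold change of the 9 was -0.01, and that of all tested genes was 0.00.

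The replicate numbers themselves were then compared, within the groups. In the quasi-likelihood test of the replicate terms NFAT5 (adjusted p = 2.81e-06) and NFATC3 (adjusted p = 0.0246) differed between the numbers, 2 of 9 tested genes where 26% of all tested genes were called. For both, replicate 1 was the lower, and 14.4% of all tested genes were both called and lower in replicate 1. NFAT5 was -0.77 (SE 0.0677) on the log2 scale in replicate 1 against the mean of replicates 2 and 3. NFATC3 was -0.23 on that scale, and its call was lost in DESeq2, with an adjusted p of 0.219. With no filter on low counts MEF2A was called as well (adjusted p = 0.0368).

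Known NFAT5 targets were compared in the same way. Of the 7 on the list, 6 were tested and 5 of these were called, all lower in replicate 1, where 26% of all tested genes were called and 14.4% were called lower in replicate 1. They were named after their values were seen. SLC5A3, the myo-inositol carrier, had 53.9, 83.3 and 78.0 CPM in the libraries labelled H295R and 55.3, 94.8 and 87.5 CPM in the others, a difference of -0.65 on the log2 scale (SE 0.0546; edgeR adjusted p = 1.90e-06). Both replicate 1 libraries were the lowest of their group. The amino acid carrier SLC38A2 was at -0.48, the heat shock protein HSPH1 at -0.47, the taurine carrier SLC6A6 at -0.47 and the chaperone HSPA4L at -0.28 in the same contrast, HSPA4L losing its call in DESeq2 (adjusted p = 0.0831). The aldose reductase gene AKR1B1, which makes sorbitol, was at 0.03 and not called. Between the groups, none of the 6 was called with the group alone in edgeR, DESeq2 or limma-voom, and 1 had an unadjusted p under 0.05 in edgeR, where 17.3% of all tested genes did. With the replicate block, which called 12.1% of all tested genes higher, 3 of the 6 were called, all higher by label: SLC6A6 (log2 fold change 0.29, adjusted p = 2.73e-04), AKR1B1 (0.17, adjusted p = 0.0183) and HSPH1 (0.20, adjusted p = 0.0198). SLC6A6 was also called without both replicate 1 libraries.

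Transcript length and base composition moved with the replicate number too. The median log2 difference of replicate 1 against replicates 2 and 3 went from 0.15 in the 1671 shortest tested genes to -0.20 in the 1671 longest, and from -0.12 in the 1368 genes with the lowest GC content to 0.18 in the 1368 with the highest. NFAT5, with 16401 listed exon bases, is longer than 98.1% of tested genes, and its GC content is 40.4%. Among the 220 genes in the same class of length and of GC content, with 10 classes of each, the median of this contrast was -0.32. NFAT5 itself was at -0.77, and 7.73% of its class was as low or lower. In the classes of the targets SLC38A2, HSPH1, SLC5A3 and SLC6A6 the medians were -0.15, -0.12, -0.28 and -0.08. There, 2.53%, 2.87%, 12.3% and 7.26% of genes were as low as the target or lower. For HSPA4L the class median was -0.28, the same as its own value, and 49.8% of its class was as low. For NFATC3 the class median was -0.11, and 27.1% of its class was as low. The part of length and composition in these differences was not tested.

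**Figure D3:**
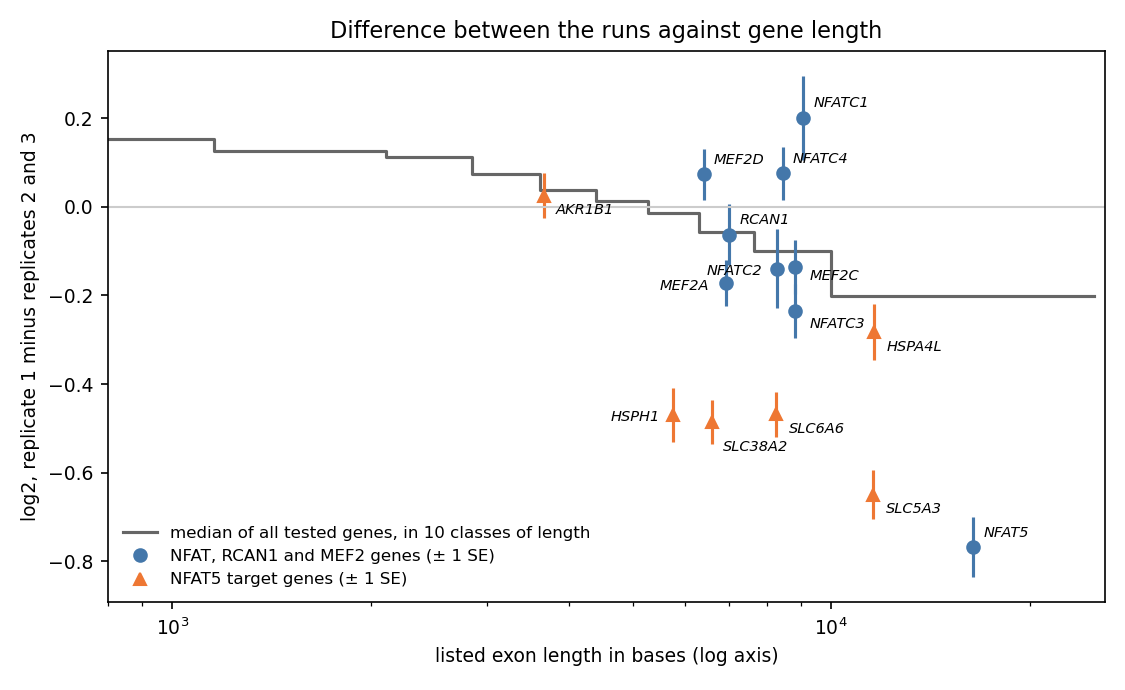
Log2 difference of replicate 1 against replicates 2 and 3, within groups (y axis), against listed exon length in bases (x axis, log scale), for the 9 tested NFAT, RCAN1 and MEF2 genes (blue circles) and 6 NFAT5 targets (orange triangles), each ± 1 SE. The grey line is the median of all tested genes in each of 10 classes of length, and NFAT5 lies at -0.77 and 5 of its targets between -0.65 and -0.28, all below that line.

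Around the genes, the local level differences were examined. The 100 nearest tested genes on the same chromosome had median log2 fold changes of 0.01 around NFATC2 and 0.05 around NFAT5, and the 59 nearest around NFATC1, which lies near the chromosome end, had a median of -0.03. NFATC1 differed from that median by -0.54 and NFATC2 by -0.41.

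**Figure D4:**
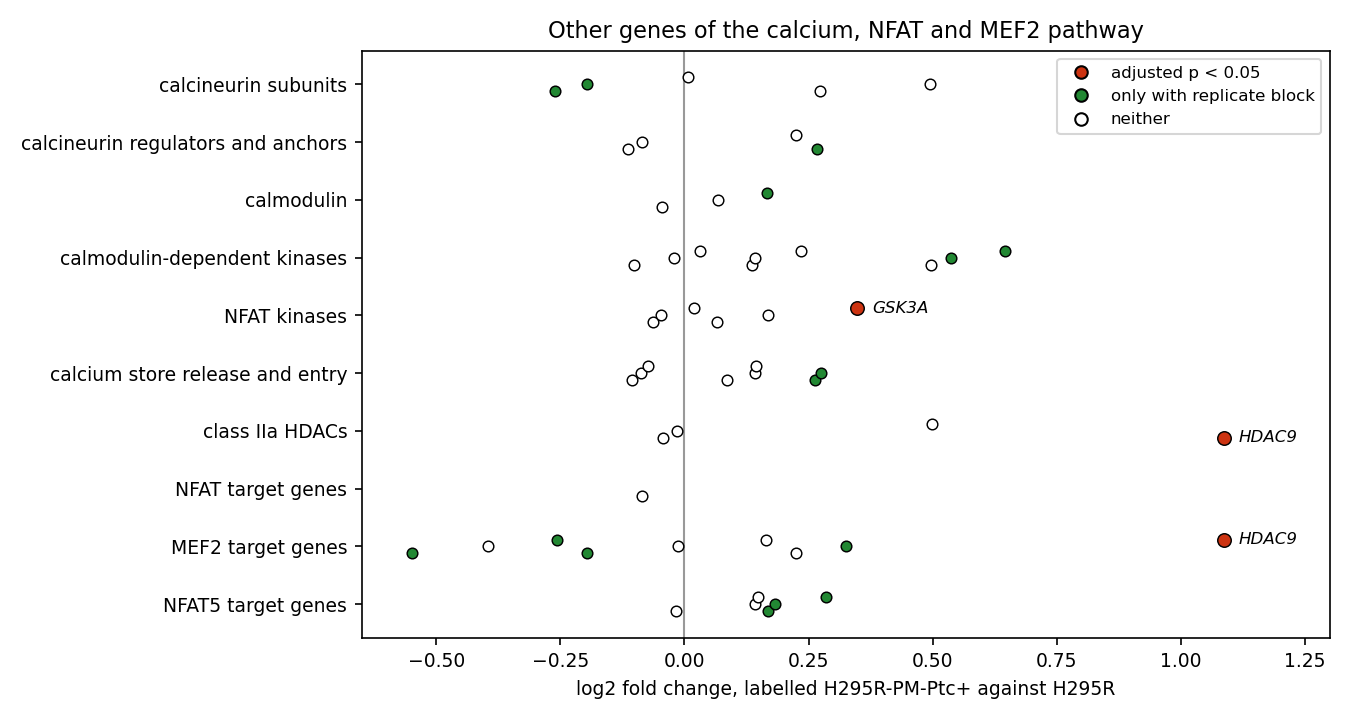
Log2 fold change between the groups as labelled, H295R-PM-Ptc+ over H295R (x axis), for the other tested pathway genes, by list (y axis), 1 point per gene and list. Red points had an adjusted p under 0.05 with the group alone, green points only with the replicate block and open points in neither. HDAC9 stands apart at 1.09 and appears in 2 lists.

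The rest of the pathway was read from 64 listed genes, from calcium entry to NFAT, MEF2 and NFAT5 targets. Of these, 53 were tested and 2 were called, both higher in H295R-PM-Ptc+ by label, beside 2.42% of all tested genes called higher. At an unadjusted p under 0.05 there were 9 higher and 3 lower, where 17.3% of all tested genes passed. The replicate block called 12 higher and 5 lower, where it called 12.1% and 10.4% of all tested genes. The median log2 fold change of the 53 was 0.14, against 0.00 for all tested genes.

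HDAC9, a class IIa deacetylase that binds and silences MEF2 and is itself a MEF2 target, had the largest difference of the pathway. Its levels were 24.0, 19.4 and 19.3 CPM in the libraries labelled H295R and 48.4, 42.2 and 42.6 CPM in those labelled H295R-PM-Ptc+. The groups were far apart, and the log2 fold change was 1.09 (SE 0.107, 95% interval 0.85 to 1.33; edgeR adjusted p = 0.00113). The study picked HDAC9 from these libraries, so its call is not independent evidence. HDAC9 was called under each of the 13 alternatives computed, with log2 fold changes of 1.01 to 1.19. The other class IIa members were not called: HDAC4 was at 0.50, HDAC5 at -0.04 and HDAC7 at -0.01, with edgeR adjusted p of 0.254, 0.906 and 0.966.

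GSK3A, a kinase that phosphorylates NFATc proteins and so favours their export from the nucleus, was the other call. It had 87.9, 80.2 and 89.2 CPM against 112, 107 and 108 CPM, without overlap. The log2 fold change was 0.35 (SE 0.0740; edgeR adjusted p = 0.0389), and the adjusted p rose to between 0.0957 and 0.156 when any library except H295R replicate 1 was left out. Of the 100 nearest tested genes on chromosome 19, 92 lay higher in H295R-PM-Ptc+ by label, and the median of the 100 was 0.26. The part of this stretch in the GSK3A difference was not tested. Its relative GSK3B was at -0.06 and not called (edgeR adjusted p = 0.872), and of the 6 kinases on the NFAT list GSK3A was the 1 called, beside 2.42% of all tested genes called higher.

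None of the 5 calcineurin subunits was called with the group alone in edgeR, DESeq2 or limma-voom, and 2 had an unadjusted p under 0.05 in edgeR, where 17.3% of all tested genes did. The block, which called 22.5% of all tested genes, called 2 of the 5. The catalytic subunit PPP3CA had 94.9, 114 and 113 CPM against 77.2, 97.1 and 95.1 CPM, lower in each pair, with a log2 fold change of -0.26 (SE 0.112; edgeR adjusted p = 0.274, and 6.00e-04 with the replicate block). The regulatory subunit PPP3R1 was at -0.20 (adjusted p = 0.470, and 0.00896 with the block). The catalytic subunits PPP3CB and PPP3CC were at 0.01 and 0.27, with edgeR adjusted p of 0.983 and 0.235, and PPP3R2, the testis form, had at most 16 counts in a library. Calmodulin was abundant, with CALM2 and CALM3 at mean levels of 551 and 698 CPM in the libraries labelled H295R and 577 and 783 CPM in the others, and neither was called with the group alone (edgeR adjusted p = 0.773 and 0.481; 0.349 and 0.0120 with the block).

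Of 8 genes for calcium store release and entry, all tested, and of 10 calmodulin-dependent kinases, 9 tested, none was called with the group alone in edgeR, DESeq2 or limma-voom. In edgeR, at an unadjusted p under 0.05 there were 0 and 2 of them, where 17.3% of all tested genes passed. The block called 2 higher in each list, where it called 12.1% of all tested genes higher. The kinase gene CAMK2B, with a log2 fold change of 0.54 (edgeR adjusted p = 0.0782), was among them and was also called without H295R replicate 1 and when low counts were not filtered out.

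The classical NFAT targets were mostly silent. Of 7 listed, RCAN2 alone was tested, with a log2 fold change of -0.08 (edgeR adjusted p = 0.838). IL2 and CD40LG had 0 counts in every library, which allows up to 0.117 to 0.130 CPM per library, for counting error only. TNF, FASLG and PTGS2 had at most 1 count in a library, and CXCL8 had 3 to 7. Of the MEF2 targets 9 of 10 were tested and HDAC9 was the 1 called with the group alone in edgeR, beside 3.73% of all tested genes. At an unadjusted p under 0.05 there were 4 of the 9 and 6 had groups that did not overlap, where the shares of all tested genes were 17.3% and 23.5%. The glucose carrier SLC2A4, named after its values were seen and also picked by the study from these libraries, had 60.2, 42.6 and 41.3 CPM against 36.8, 31.8 and 29.9 CPM, a log2 fold change of -0.55 (SE 0.149; edgeR adjusted p = 0.0870, and 1.83e-05 with the block), and was called in DESeq2 and with no filter on low counts. The orphan receptor NR4A1, which links calcium to steroidogenic enzymes in the adrenal cortex, was at -0.26 (adjusted p = 0.191, and 0.00854 with the block). JUN, a subunit of AP-1 that the study also picked from these libraries, was at 0.33 (adjusted p = 0.147, and 0.00510 with the block). In all, the block called 2 of the 9 MEF2 targets higher and 3 lower, where it called 12.1% and 10.4% of all tested genes.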

How the data were processed

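RNA of 3 libraries labelled H295R and 3 labelled H295R-PM-Ptc+ was sequenced as paired reads. The deposited values are whole-number counts of fragments per gene name, which the authors made with STAR 2.4.0a on hg38 and featureCounts on the Ensembl annotation, with a strand option and with multiply mapped reads kept. The Subread version is given as 1.5.0-p3 in the submitters' processing notes and differently in the methods, and the kit is named both as total RNA and as mRNA, so that the match of strand option and kit could not be checked.

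Here, counts were filtered (filterByExpr), scaled by trimmed means (TMM) and tested with the quasi-likelihood F-test of edgeR 4.0.16 in R 4.3.3, with the group as the only term. The methods name no other term. Calls needed an adjusted p under 0.05 (Benjamini-Hochberg over all tested genes). SE is the log2 fold change divided by the root of F, and intervals are 95%. Replicate numbers were tested together in a fit with group and replicate. Totals of 23264403 to 25813247 counts leave a floor of 3 counts, and floors cover counting error only. The 1 row without a gene name held 0 counts. The edgeR, DESeq2 and limma-voom fits were tested on simulated data, and the other steps were not.

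Same-numbered libraries deviated together from their group means (correlation over genes 0.594, 0.405 and 0.325; other pairs -0.443 to 0.211), so blocked values stand beside results they change. Alternatives were DESeq2 1.42.0, limma-voom (limma 3.58.1), relative log expression factors, no filter, at least 10 counts in every library, each library left out, the replicate block and, added after seeing the data, both replicate 1 libraries left out. By rule, all 10 genes are named, and other pathway genes where their adjusted p was under 0.05 with the group alone; the other pathway genes printed were named after their values were seen. The genes and lists were chosen with earlier results of these data known. GC content was available for 81.9% of tested genes. The authors' fold changes and p-values were not used. Some listed genes are not reported here.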

Additional observations from a re-analysis of the deposited data

How the results depend on the processing

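The number of the 9 tested genes called between the groups was 1, and 1 in DESeq2, limma-voom, with relative log expression factors and with a minimum of 10 counts per library. With no filter it was 1 of 10, MEF2B included. It was 4 with the replicate block and 4 without both replicate 1 libraries, and 0 to 2 with 1 library left out. The number of pathway genes called was 2, and 17 with the block, 9 without both replicate 1 libraries, 4 with no filter, 3 in DESeq2 and 1 to 3 with 1 library left out. Over all genes 624 were called, against 3758 with the block, 2013 without both replicate 1 libraries, 1111 with no filter, 911 in DESeq2 and 219 to 810 with 1 library left out. The cause was not tested. Between replicate numbers DESeq2 called 1 of the 9 genes, NFAT5, in place of 2, and with no filter 3 were called.

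Of the 20 genes followed through the alternatives, signs turned for 6, none of them called. Without both replicate 1 libraries the log2 fold change was 0.039 for NFATC4, -0.069 for PPP3CB, 0.047 for HDAC5 and 0.065 for HDAC7. With 1 library left out the values ranged from -0.088 to 0.027 for NFATC4, from -0.069 to 0.031 for RCAN1, from -0.074 to 0.066 for PPP3CB, from -0.0082 to 1.19 for PPP3R2, from -0.16 to 0.084 for HDAC5 and from -0.12 to 0.058 for HDAC7. NFATC1, NFATC2, NFAT5 and MEF2D kept their sign under all 13 alternatives. Depth limits MEF2B, with 2 to 11 counts, and the unmeasured NFAT targets. With 3 libraries a group, an exact permutation test cannot give a p below 0.1.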
